A study of Arabidopsis thaliana with 14 samples.

Results

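The genes described here are those that Arabidopsis thaliana carries on its chloroplast genome. They were taken as every gene ID beginning with ATCG in the tables of gene levels, with an RPKM above 0.1 in at least 3 of the 14 libraries. RPKM is the number of reads of a gene divided by its length and by the mapped reads of the library. Of 133 such IDs among 33602 in all, 127 met the rule. Of the 6 that did not, 5 had the length of a transfer RNA and reached an RPKM of 0.453 to 1.27 in 1 or 2 libraries, and ATCG01000 was at 0 in all 14. Just inside the rule were ATCG00060 and ATCG00230, both at 0 in 11 libraries, with highest RPKMs of 1.09 and 1.26. An RPKM above 0.1 was reached in all 14 libraries by 86 of the 127 genes, and 33 were at 0 in at least 1 library.

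RNA came from whole 14-day-old seedlings of the Col-0 accession grown in long days. The 6 genotypes were wild type (Col), hda6-6, hda5-1 and hda9-1, each in 3 libraries, and 2 mutants in 1 library each, fve-4 and fld-6. The labels give the mutants as hda6 -/-, hda5 -/-, hda9 -/-, fve -/- and fld -/-. HDA6, HDA5 and HDA9 are histone deacetylases, FVE is a WD-repeat protein found with histone deacetylases, and FLD is a histone demethylase homolog. hda6-6 carries a point mutation at a splice site, fve-4 a point mutation that ends translation early, and fld-6 a T-DNA in the second exon. The lesions of hda5-1 and hda9-1 are not given in the sources used here. Each genotype is 1 line, and the libraries are called replicates 1 to 3 after their labels.

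The chloroplast genome is a small circular DNA present in many copies per cell. It encodes the large subunit of Rubisco, subunits of the photosystems, the cytochrome b6f complex, the ATP synthase and the NDH complex, and much of the machinery of its own expression, which comprises ribosomal and transfer RNAs, ribosomal proteins and the core of a bacterial-type RNA polymerase called PEP. PEP needs nucleus-encoded sigma factors and transcribes the photosynthesis genes strongly, and a second, phage-type polymerase made in the nucleus also transcribes plastid genes and is the main polymerase of the rpoB operon. Chloroplast mRNAs do not carry the long stable poly(A) tails of nuclear mRNAs, and a short A-rich tail marks a chloroplast transcript for decay. The RNA here was selected on poly-T beads, so that the values are those of the chloroplast transcripts that passed this selection, not of all chloroplast RNA in the seedlings.

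Because the RNA was selected on poly-T beads, the most A-rich 30 bases of 5 genes described below are shown. Whether the beads held transcripts by these stretches was not tested. psbA encodes the D1 protein of photosystem II, rbcL the large subunit of Rubisco, rpoB a subunit of PEP, psaJ a small subunit of photosystem I and rpl32 a protein of the large ribosomal subunit. Sequences are from RefSeq (build TAIR10.1, chloroplast chromosome, gene strand, 5′ to 3′), with A in capitals.
psbA, chrC:740-769 (minus strand): gAAAccAcAgAAAAtgAAtctgctAAtgAA
rbcL, chrC:55419-55448 (plus strand): tAtccAAgttgAAAgAgAtAAAttgAAcAA
rpoB, chrC:25670-25699 (minus strand): AAggAgAAAAAAAAAAtAggAtcAAAAgAA
psaJ, chrC:66929-66958 (plus strand): AtgcgAgAtctAAAAAcAtAtctttccgtA
rpl32, chrC:113482-113511 (plus strand): AAAAAgcgtAttcgtAAAAAAAtttggAAA
The window held 15 A in psbA, 15 in rbcL, 21 in rpoB, 11 in psaJ and 16 in rpl32. The longest unbroken run of A in them is that of rpoB.

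The libraries held 17872932 to 25564398 mapped reads, as recovered from the steps between low RPKM values. As a check of the labels, HDA6 was at an RPKM of 2.84 to 3.62 in hda6-6 and 8.08 to 11.8 elsewhere, HDA5 at 3.23 to 3.80 in hda5-1 and 9.68 to 15.4 elsewhere, HDA9 at 0.399 to 0.693 in hda9-1 and 4.39 to 7.43 elsewhere, and FVE at 0.227 in fve-4 and 17.4 to 22.3 elsewhere. FLD was at 3.52 in fld-6, within the range of the other genotypes, and checks nothing there. Nuclear markers of green tissue summed to 49401 to 70554 RPKM, a 1.43-fold range, those of root to 700 to 1220, and those of flower and seed to at most 1.28 and 2.63.

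The chloroplast genes together varied widely between replicates of 1 genotype. Their summed RPKM ran from 974 in hda6-6 replicate 2 to 11458 in fld-6, an 11.8-fold range, and the next highest library was hda6-6 replicate 3 at 10211. So 1 genotype, hda6-6, held the lowest library of all and the second highest. In Col the sum was 5613, 1257 and 1682, in hda5-1 it was 1522, 7132 and 2557, in hda9-1 it was 3653, 1827 and 1113, and in fve-4 it was 1550. The ranges of Col, hda6-6, hda5-1 and hda9-1 all overlapped. Ribosomal RNA made up 56.6 to 85.8% of the sum, and without ribosomal and transfer RNA the range was 369 to 1505 RPKM, or 4.07-fold. In bulk RNA, fewer chloroplast-rich cells and less chloroplast RNA per cell cannot be told apart.

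The spread within genotypes of a single chloroplast gene had a median SD of 0.86 on the log2(RPKM + 0.1) scale. For all 23187 genes tested the median SD was 0.21, and for 8234 nuclear genes of like RPKM it was 0.22. For 124 genes of the mitochondrial genome it was 0.60. With 3 replicates the median standard error of the log2 fold change of a chloroplast gene was 0.58, and it was 0.83 for the genotypes with 1 library, where the corresponding values over all genes were 0.17 and 0.24.

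Of the chloroplast RNAs, rrn16S and rrn23S gave the highest levels, while rrn4.5S and rrn5S, short RNAs of the large subunit, were far lower. Their genes lie in the inverted repeat, in 2 copies of the same sequence, and the RPKM tables gave the reads of rrn16S and rrn23S to the copies unevenly. For rrn23S, the RNA of the large ribosomal subunit, one or other of the copies ATCG00950 and ATCG01180 was at 0 in 5 libraries, and the same number held for rrn16S. The copies of rrn4.5S and rrn5S were equal in all 14 libraries. Copies of 1 sequence cannot be told apart, so their sum is given for the rest.

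**Figure D1:**
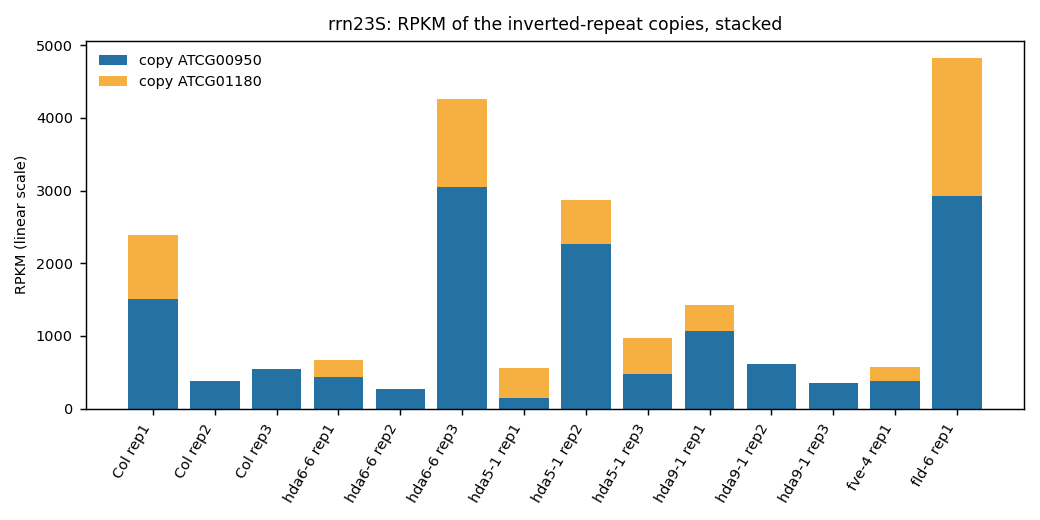
RPKM of the 2 inverted-repeat copies of rrn23S in the 14 libraries, stacked on a linear axis from 0; the height of a bar is the sum. The split between the copies changed from library to library, and the sum ran from 274 in hda6-6 replicate 2 to 4819 in fld-6.

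The summed rrn23S was at an RPKM of 2387, 386 and 549 in Col, 562, 2869 and 966 in hda5-1, 663, 274 and 4263 in hda6-6, 1430, 621 and 350 in hda9-1, with 570 for fve-4 and 4819 for fld-6. The highest replicate was 6.19 times the lowest in Col, 15.6 times in hda6-6, 5.10 times in hda5-1 and 4.09 times in hda9-1. The high library was replicate 1 in Col and hda9-1, replicate 2 in hda5-1 and replicate 3 in hda6-6, and the genotypes overlapped. rrn16S, the RNA of the small subunit, followed rrn23S closely, with a Pearson r of 0.997 and a Spearman rho of 0.99 over the 14 libraries. Reads of all chloroplast ribosomal RNAs were 0.117 to 2.01% of the mapped reads. These correlations, like those that follow, are on the log2(RPKM + 0.1) scale, are descriptions without a test, and come from libraries in which all genes share the same depth and the same poly-T selection.

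rrn5S, the small RNA of the large subunit, differed in part from rrn23S. Its copies summed to an RPKM of 86.6, 3.44 and 3.04 in Col, 33.0, 32.3 and 5.42 in hda5-1, 14.2, 4.23 and 41.7 in hda6-6 and 240.0, 4.77 and 2.24 in hda9-1. It was at 556 in fld-6 and 46.7 in fve-4. The reads behind these values ran from 6 to 1708. In Col and hda9-1 replicate 1 was the highest for rrn5S as for rrn23S, and so was replicate 3 in hda6-6. Of all libraries fld-6 was the highest for both. In hda5-1 replicates 1 and 2 were close for rrn5S, on 91 and 100 reads, whereas replicate 1 was the lowest for rrn23S.

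Nuclear ribosomal RNA, which poly-T selection also serves to remove, moved with the chloroplast ribosomal RNA. It summed to 1856 to 22234 RPKM, a 12-fold range, and its r with summed rrn23S was 0.97 (rho 0.95, 14 libraries). Without fld-6 and hda6-6 replicate 3, the libraries farthest from the median of rrn23S, r was 0.97. The sum of the mitochondrial genes ran from 218 to 583 RPKM, with an r of 0.87 (rho 0.78) and of 0.72 without those 2 libraries. The nuclear green-tissue markers had an r of -0.01 (rho -0.10). The part of poly-T selection in the range of the chloroplast genes was not tested.

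Among the protein-coding genes, those of photosynthesis mostly moved with the ribosomal RNA. psbA, with the highest mean RPKM over the 14 libraries of the protein-coding genes, was at an RPKM of 322, 49.0 and 71.4 in Col, 90.4, 332 and 93.4 in hda5-1, 204, 32.4 and 469 in hda6-6, 145, 72.7 and 33.8 in hda9-1, with 67.4 for fve-4 and 658 for fld-6. The ranges of Col, hda6-6, hda5-1 and hda9-1 overlapped, fve-4 lay inside that of Col, and fld-6 was above every other library. Within a genotype psbA varied 6.57-fold in Col, 14.5-fold in hda6-6, 3.68-fold in hda5-1 and 4.30-fold in hda9-1. Its r with summed rrn23S was 0.95 (rho 0.96), and 0.92 without fld-6 and hda6-6 replicate 3.

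rbcL was high in the same libraries as psbA, except that hda6-6 replicate 1 stood above Col replicate 1. Its RPKM was 63.5, 12.7 and 16.3 in Col, 35.6, 90.5 and 29.7 in hda5-1, 82.6, 9.92 and 128 in hda6-6, 40.5, 19.1 and 10.6 in hda9-1, with 19.2 for fve-4 and 141 for fld-6. Again fld-6 was the highest, hda6-6 held the lowest library of all and the second highest, and the 4 replicated genotypes overlapped. The r of rbcL with summed rrn23S was 0.90 (rho 0.94), and 0.83 without fld-6 and hda6-6 replicate 3.

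Of the 28 genes of the photosystems, cytochrome b6f and Rubisco, 25 had a mean RPKM of at least 2. Their median SD within genotypes was 1.03 and their median r with summed rrn23S was 0.89, with 19 genes at an r of at least 0.7. These included psaA and psaB (r 0.95 and 0.96), which encode the reaction centre of photosystem I, psbB, psbC and psbD (0.94, 0.98 and 0.96) of the core of photosystem II, and petB and petD (0.97 and 0.95) of cytochrome b6f. petA, which encodes cytochrome f, had an r of 0.96 but a small range, with 3.50 to 5.46 in Col, 3.53 to 6.70 in hda6-6, 4.29 to 6.21 in hda5-1, 3.09 to 5.0 in hda9-1, with 4.58 for fve-4 and 7.57 for fld-6. The 6 genes below an r of 0.7 all encode small subunits: psaJ (0.01), psbM (-0.15), psbI (0.21), psbT (0.27), psbK (0.33) and petG (0.47). Other genes for small subunits were among the 19 above it. They included psbH (0.93), psaC (0.89), psbZ (0.85), petN (0.80), psbJ (0.80), psbE (0.79), psbF (0.73) and psbL (0.73).

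**Figure D2:**
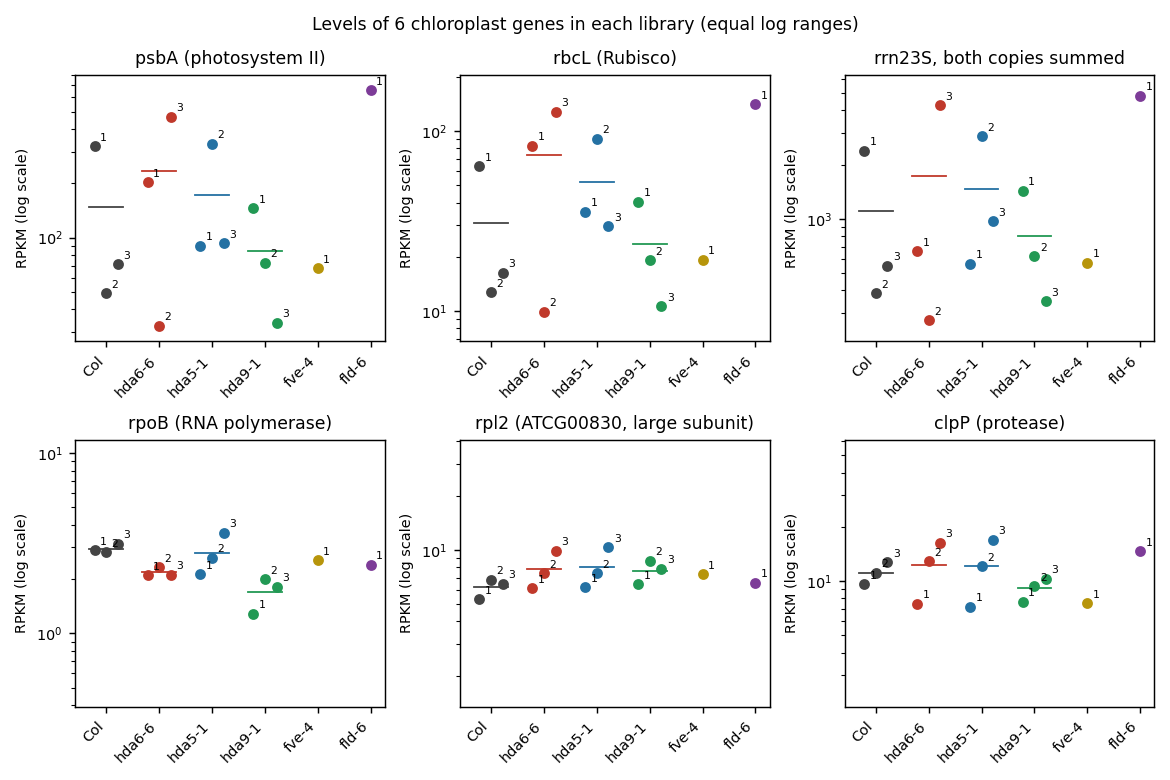
RPKM of 6 chloroplast genes in each library on log axes of equal range, by genotype; a point is 1 library with its replicate number, and a line is the mean. psbA ran from 32.4 to 658 with the replicates of 1 genotype far apart, whereas rpoB stayed between 1.29 and 3.62.

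Most genes of chloroplast gene expression were steadier, with exceptions. The 18 of 30 genes for PEP subunits and ribosomal proteins with a mean RPKM of at least 2 had a median SD of 0.43 within genotypes and a median r of 0.06 with summed rrn23S. The widest SDs among them were those of rpl32 (1.58, above any of the photosynthesis genes just described), rpl36 (1.41) and rps14 (1.23). That of rpl36 includes hda9-1 replicate 1 at 0 reads. Its RPKM was 1.86 to 2.43 in Col, 1.63 to 2.05 in hda6-6 and 1.16 to 3.43 in hda5-1. In all, 17 of the 18 were below an r of 0.7. The 1 gene above it was rps14, a small-subunit protein whose gene is transcribed together with psaA and psaB, at an r of 0.96. Its RPKM was 16.0, 3.36 and 4.55 in Col, 5.22, 21.4 and 12.4 in hda5-1, 10.3, 2.92 and 30.1 in hda6-6, 8.68, 6.58 and 2.53 in hda9-1, with 4.52 for fve-4 and 29.7 for fld-6, so that its high and low libraries were those of psaA and psaB rather than those of the other ribosomal proteins.

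rpoB and rpl2 had the smallest spread within genotypes of all chloroplast genes with a mean RPKM of at least 2, with SDs of 0.25 and 0.29. rpoB was at an RPKM of 2.90, 2.82 and 3.16 in Col, 2.14, 2.62 and 3.62 in hda5-1, 2.1, 2.33 and 2.12 in hda6-6, 1.29, 2.01 and 1.82 in hda9-1, with 2.56 for fve-4 and 2.41 for fld-6. All libraries of hda6-6 and hda9-1 were below all of Col, and hda5-1 overlapped Col. rpl2, a protein of the large subunit with 2 identical copies, ran from 5.31 to 10.3 over the 14 libraries. The other PEP subunits rpoC1 and rpoA had SDs of 0.25 each, at mean RPKMs under 2, and rpoC2 of 0.35.

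The 6 genes of the ATP synthase are in separate transcription units, and these differed. atpI, atpH, atpF and atpA, which form 1 operon, had an r of 0.77, 0.97, 0.92 and 0.93 with summed rrn23S. atpB and atpE, which form the other, had an r of 0.14 and 0.12. atpH was at 15.5, 5.45 and 6.91 in Col and 29.0 in fld-6, whereas atpB was at 7.65, 9.32 and 10.4 in Col and 10.4 in fld-6. The NDH complex, which passes electrons around photosystem I, was low, with only 2 of 9 genes at a mean RPKM of at least 2. Its most abundant member in Col, ndhK, was at 2.00 to 2.25 in Col, 1.65 to 3.59 in hda6-6, 1.30 to 3.46 in hda5-1, 1.82 to 2.59 in hda9-1, with 1.58 for fve-4 and 3.60 for fld-6. clpP, a subunit of the chloroplast protease, was at 9.62 to 12.7 in Col, 7.46 to 16.3 in hda6-6, 7.21 to 16.9 in hda5-1, 7.67 to 10.3 in hda9-1, with 7.54 for fve-4 and 14.6 for fld-6, with the 4 replicated genotypes overlapping.

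Transfer RNAs were identified by length only, and 32 met the rule. Most rested on few reads, with a median over genes of 1.02 for the mean RPKM. The most abundant in Col, ATCG00090, was at 8.68, 11 and 11 in Col, 5.49, 12.9 and 16.4 in hda5-1, 6.68, 5.81 and 12.2 in hda6-6, 11.4, 2.39 and 6.15 in hda9-1, with 9.74 for fve-4 and 5.37 for fld-6. No genotype was apart from the others. For 8 more genes no name was matched, and the most abundant of them in Col, ATCG00360, ran from 0.241 to 1.95 RPKM over the 14 libraries.

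psbN showed a wide range for a photosystem gene of modest level. It was at 16.4, 1.05 and 3.48 in Col, 5.32, 13.9 and 5.30 in hda5-1, 4.45, 3.17 and 17.0 in hda6-6, 8.90, 1.99 and 2.39 in hda9-1, with 3.57 for fve-4 and 42.7 for fld-6, and its r with summed rrn23S was 0.92. psbN lies on the opposite strand within the psbB cluster, and the library protocol is not stated to mark strand. Its reads cannot be told apart from reads of that cluster's transcripts on the other strand. It is named here after its values were seen.

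The share of A in the coding sequence differed between the functional groups, and less between genes split by their r with summed rrn23S. The photosystem, cytochrome b6f and Rubisco genes had a median of 25.9% A (21.1 to 31.5%, 28 genes), and the PEP and ribosomal protein genes with a sequence had a median of 35.5% A (31.4 to 40.4%, 24 genes). The 24 genes at an r of at least 0.7 had a median of 25.9% A (20.7 to 36.0%), and the 24 below it had a median of 32.6% A (21.5 to 39.7%), so that the ranges overlapped widely. Across the 48 protein-coding genes with a sequence and a mean RPKM of at least 2, the Pearson r between the share of A and the r with summed rrn23S was -0.58. Across all 72 with a sequence it was -0.50, and with log2 coding length in place of the share of A, over the 48 genes, it was 0.24. These are descriptions across genes, which share operons and libraries and are not replicates. Function and base composition go together in these genes and cannot be told apart.

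**Figure D3:**
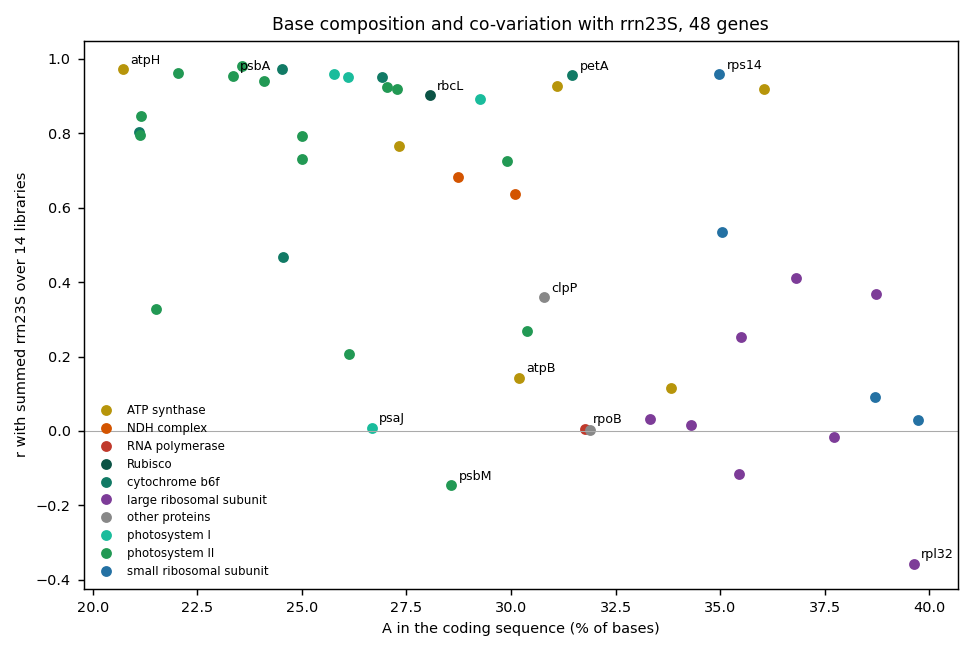
Share of A in the coding sequence (% of bases) against the correlation of each gene with summed rrn23S over the 14 libraries; a point is 1 of 48 genes, coloured by functional group. Genes rich in A lay lower, with an r of -0.58 across genes.

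A small set of genes followed the replicate number instead of the ribosomal RNA. All 6 libraries numbered 1, one of each genotype, were below all 8 libraries numbered 2 or 3 in 4 chloroplast genes, which were rpl32, psbM, psaJ and cemA. Over all genes tested, 0.358% (83 genes) were lower in this way without overlap and 0.453% (105 genes) were higher, and no chloroplast gene was among the latter. Of the 83, these 4 had the largest differences of mean log2(RPKM + 0.1). psbM and cemA are named after their values were seen, as was the split itself.

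rpl32 was at an RPKM of 2.40, 25 and 27.5 in Col, 3.87, 20.4 and 27.2 in hda5-1, 4.49, 21.4 and 27.0 in hda6-6, 5.98, 36.3 and 26.1 in hda9-1, with 6.47 for fve-4 and 2.23 for fld-6. Within every replicated genotype replicate 1 was the low one, and the log2 difference between the libraries numbered 1 and the others was -2.70. psaJ was at 40.9, 93.5 and 114 in Col, 41, 111 and 141 in hda5-1, 44.8, 85.8 and 135 in hda6-6, 45.6, 136 and 77.8 in hda9-1, with 54.0 for fve-4 and 62.2 for fld-6, with a difference of -1.20. psbM, a small subunit of photosystem II, was at 4.0 to 7.46 in the libraries numbered 1 and 11.9 to 21.4 in the others (-1.55). cemA, an envelope membrane protein, was at 2.29 to 3.90 and 5.42 to 12.4 (-1.04). No source says what the number stands for, and since fve-4 and fld-6 have only a library numbered 1, genotype and number cannot be told apart there.

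**Figure D4:**
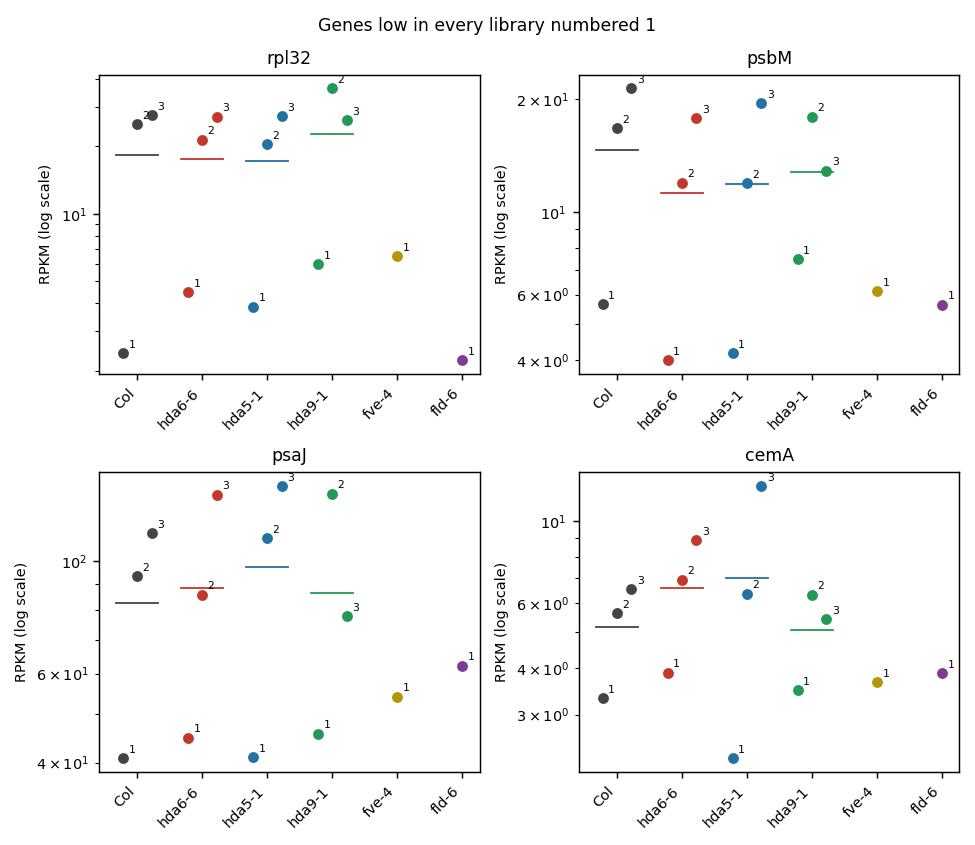
RPKM of rpl32, psbM, psaJ and cemA by genotype on log axes; a point is 1 library with its replicate number beside it, and a line is the mean of the genotype. In each gene the 6 libraries numbered 1 lay below the 8 others, for rpl32 at 2.23 to 6.47 against 20.4 to 36.3.

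The chloroplast genes called in each mutant are given beside the share of all genes called. Each mutant was compared with the same 3 Col libraries by limma on log2(RPKM + 0.1) over all 23187 genes, and those counted as called moved at least 2-fold with an adjusted p below 0.05. In hda6-6 no chloroplast gene was called, where 12.9% of all genes were (7.95% higher and 4.96% lower), and 5 of 127 had an unadjusted p under 0.05, against 43.4% of all genes. In hda5-1 it was 1 gene, which rose, where 9.45% of all genes were called (5.51% higher and 3.94% lower), and 4 had an unadjusted p under 0.05 (37.1% of all genes). In hda9-1 it was none, where 5.86% of all genes were called (2.1% higher and 3.75% lower), and 7 had an unadjusted p under 0.05 (36.9%). In fve-4, 1 gene rose and 1 fell, where 7.89% of all genes were called (3.9% higher and 3.98% lower), and 4 had an unadjusted p under 0.05 (35.4%). In fld-6, 2 genes rose, where 1.81% of all genes were called (0.677% higher and 1.13% lower), and 24 had an unadjusted p under 0.05 (16.4%). Between fld-6 and fve-4 no chloroplast gene was called, where 1.55% of all genes were (0.798% higher and 0.75% lower), and 15 of 127 had an unadjusted p under 0.05 (19.1%). Biological repeats are stated for Col and hda6-6 only, and no source says that the replicates of hda5-1 and hda9-1 were grown apart, so the spread behind the p-values may be in part technical.

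The median log2 fold change of the 127 genes was 0.32 in hda6-6, 0.41 in hda5-1, -0.12 in hda9-1, -0.26 in fve-4 and 1.03 in fld-6, where the median over all genes tested was 0.05, 0.04, 0.08, 0.19 and 0.02. A change of at least 2-fold, whatever its p, was seen upward in 14 genes in hda6-6, 17 in hda5-1, 6 in hda9-1, 9 in fve-4 and 64 in fld-6. Downward the numbers were 3, 4, 7, 20 and 9. The share of all genes that moved 2-fold whatever the p is not given here. The median standard error of the chloroplast genes was 0.58, and 0.83 for fve-4 and fld-6. Over all genes it was 0.17 and 0.24, so these counts hold much spread. The medians of hda6-6 and hda5-1 turned to -0.22 and -0.66 when only the libraries numbered 1 were set against Col replicate 1. Those of hda9-1 and fve-4 became -0.46 and -0.65, and that of fld-6 stayed above 0, at 0.63. The median of fve-4 moved to -0.01 when 1 Col library was left out. Without hda6-6 replicate 2, the lowest library of all, 8 of the 127 chloroplast genes were called in hda6-6. The share of all genes called in that fit is not given here, and with all libraries it was 12.9%.

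**Figure D5:**
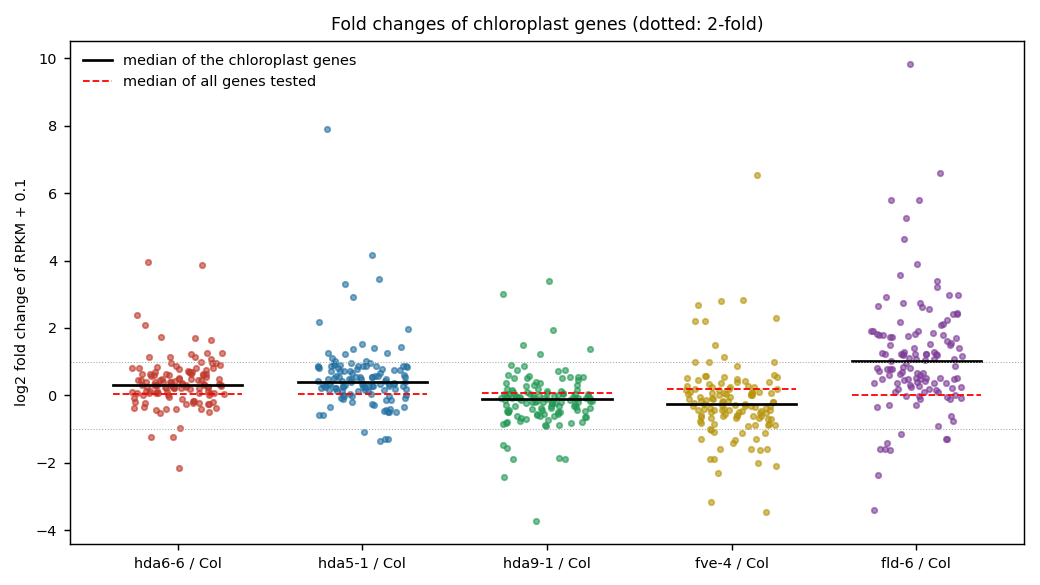
Log2 fold change of RPKM + 0.1 of each chloroplast gene in each mutant against Col; a point is 1 gene, solid lines are medians over the chloroplast genes, dashed lines medians over all genes tested, and dotted lines mark 2-fold. The points of fld-6, 1 library, lay highest, with a median of 1.03 over 127 genes, and the median of fve-4, also 1 library, was -0.26.

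fld-6 had the highest summed RPKM, of which most was ribosomal RNA, whereas the median RPKM of the genes other than ribosomal and transfer RNA was higher in hda6-6 replicate 3 (4.27) than in fld-6 (3.47). The changes of psbA and rbcL in fld-6 did not pass the test. psbA had a log2 fold change of 2.66 (SE 1.36, limma adjusted p = 0.369) and rbcL of 2.57 (SE 1.27, limma adjusted p = 0.347). In hda6-6 the log2 fold changes were 0.49 for psbA (SE 0.96, limma adjusted p = 0.738) and 0.99 for rbcL. In fve-4 they were -0.63 (SE 1.36, limma adjusted p = 0.791) and -0.30. By group, the medians in fld-6 were 2.42 for photosystem I, 1.79 for photosystem II, 1.25 for the ATP synthase, 1.28 for cytochrome b6f, 0.86 for the NDH complex and 1.23 for transfer RNAs. For PEP the median was 0.09, for the large ribosomal subunit 0.09 and for the small subunit 0.37. A single library gives no spread, so fld-6 and fve-4 were taken to vary as the replicated genotypes do.

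The called genes were all low. ATCG00610, of transfer RNA length, rose in hda5-1 by 1.97 on the log2 scale (SE 0.47, limma adjusted p = 0.00804), from 1, 0.33 and 2 reads in Col to 4, 5 and 4 in hda5-1. The groups did not overlap, but the counts are single reads, and 0.33 is a fraction of a read as the authors' value gives it. In fld-6 the same gene had 8 reads and rose by 2.74 (SE 0.66, limma adjusted p = 0.0464). That call was lost without Col replicate 1 or 2 (limma adjusted p = 0.0813 and 0.0641). ATCG00060 had 0 reads in Col, 1 in the fve-4 library and 2 in that of fld-6, and was called higher in both (limma adjusted p = 0.0352 and 0.0437). Both calls were lost without any 1 of the Col libraries, at limma adjusted p from 0.0608 to 0.0919. psaI, a small subunit of photosystem I, had 2, 1 and 4 reads in Col and 0 in fve-4 and was called lower there (limma adjusted p = 0.0322), a call lost without Col replicate 1 or 3 (limma adjusted p = 0.0535 and 0.0762). Fold changes of genes at 0 depend on the constant added before the log and are not given. ATCG00060 met the rule for membership only through hda6-6 replicate 2, fve-4 and fld-6. Its calls in fve-4 and fld-6 thus rest on libraries that admitted it.

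The one chloroplast gene past the adjusted p in hda9-1 was rpoB, with a change under 2-fold. It fell by 0.78 on the log2 scale (SE 0.20, limma adjusted p = 0.0143), from 2.96 ± 0.177 RPKM (SD, n = 3) in Col to 1.70 ± 0.373 (SD, n = 3) in hda9-1. Without Col replicate 3 the adjusted p was 0.0516, and with replicates 2 and 3 alone it was 0.0649. In hda6-6, where rpoB also lay below Col in all 3 libraries, the log2 fold change was -0.42 (SE 0.20, limma adjusted p = 0.130). In fve-4 and fld-6 it was -0.20 and -0.28.

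A second fit asked which chloroplast genes changed relative to the others, with every library shifted to the same chloroplast median. It called 4 genes higher and 1 lower in hda6-6 (8.76% of all genes called), 7 and 1 in hda5-1 (5.65%), 3 and 4 in hda9-1 (2.73%), 7 and 2 for the fve-4 library (1.31%), 10 and 2 for that of fld-6 (0.858%), and 3 and 1 in fld-6 against fve-4 (0.388%). The prior degrees of freedom of that fit were infinite, so that limma gave each gene the spread of the trend and none of its own. Most of the calls were copies of rrn16S, rrn23S, rrn4.5S and rrn5S or transfer RNAs. rpl32 was called lower in fld-6 by it (log2 -3.01), but fld-6 has only a library numbered 1, and its RPKM of 2.23 stood beside 2.40 in Col replicate 1 and 25 and 27.5 in the other Col libraries. It called rpl36 of the large ribosomal subunit lower in hda9-1, where replicate 1 had 0 reads and replicates 2 and 3 had 8 and 3. When only the chloroplast genes were shifted, and genes kept their own spread, the calls were 1 in hda6-6, 1 in hda5-1, 0 in hda9-1, with 1 for fve-4 and 0 for fld-6. They were the transfer RNA-length ATCG00320, lower in hda6-6 (limma adjusted p = 0.037), ATCG00610, higher in hda5-1 (limma adjusted p = 0.0319), and psaI, lower in fve-4 (limma adjusted p = 0.0119). The calls for ribosomal RNA copies, rpl32 and rpl36 were not among them. The share of all genes called with only the chloroplast genes shifted is not given here.

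Nuclear genes of plastid transcription and RNA processing were listed beside the chloroplast genes, and all 31 were tested. None was called higher than in Col in any mutant. Called lower were 2 in hda6-6, 2 in hda5-1 and 1 in hda9-1, with 1 for fve-4 and 0 for fld-6. In the same order, 4.96, 3.94, 3.75, 3.98 and 1.13% of all genes tested were called lower. Called higher were 7.95, 5.51, 2.1, 3.9 and 0.677%. Rises under 2-fold were seen, the largest at 0.14, 0.65, 0.55, 0.74 and 0.27 on the log2 scale. The median log2 fold changes of the 31 were -0.31, -0.20, -0.13, 0.23 and -0.15. SIG5, a sigma factor induced by light and stress that directs PEP to the light-responsive promoter of psbD, was at an RPKM of 24.2, 22.9 and 28.1 in Col, 7.03, 6.29 and 7.14 in hda5-1, 4.77, 6.69 and 5.30 in hda6-6, 4.73, 4.02 and 4.55 in hda9-1, with 2.61 for fve-4 and 13.7 for fld-6. Every mutant library was below every Col library. SIG5 fell by 2.15 on the log2 scale in hda6-6 (limma adjusted p = 2.85e-07), by 1.86 in hda5-1 (2.59e-06), by 2.47 in hda9-1 (1.20e-06) and by 3.21 in fve-4 (3.89e-06). In fld-6 it fell by 0.87 (limma adjusted p = 0.0324), under 2-fold, and it was higher in fld-6 than in fve-4 by 2.34 (limma adjusted p = 0.000862). The other calls were HCF152, an RNA-binding protein of the psbB operon, lower in hda6-6 by 1.08 (limma adjusted p = 0.000905), and RPOTmp, a phage-type RNA polymerase, lower in hda5-1 by 1.11 (limma adjusted p = 0.00207).

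psbD itself did not pass the test in any mutant. Its RPKM was 15, 3.96 and 5.56 in Col, 4.30, 15.7 and 10.5 in hda5-1, 8.83, 2.81 and 26.2 in hda6-6, 6.96, 5.17 and 2.95 in hda9-1, with 4.33 for fve-4 and 31.4 for fld-6. Its log2 fold changes were 0.32, 0.36, -0.54, -0.67 and 2.17, with limma adjusted p from 0.332 to 0.773. The psbD levels of the replicated genotypes overlapped, while those of SIG5 in Col and the mutants did not. The tables do not separate transcripts by promoter, so the level from the light-responsive promoter of psbD was not measured.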

How the data were processed

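RNA-seq values of the 14 libraries were used as deposited. The authors extracted total RNA with Trizol, selected it on poly-T beads, sequenced cDNA on an Illumina HiSeq instrument, used CASAVA 1.8 for base calling and Bowtie2, whose version is not given, for mapping to TAIR10, and took RPKM from RackJ. The deposited RPKM are scaled by gene length and mapped reads only, and no counts were given. How reads on repeated sequence were shared out is not given in the sources used here.

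Mapped reads and gene lengths were recovered from the steps between RPKM values (tolerance 0.01 reads), and low values rest on few reads. Of 127 chloroplast-encoded genes, 87 took a name, nearly all by a length match to RefSeq (TAIR10.1), 32 were transfer RNAs by length and 8 matched none. The 23187 genes whose RPKM passed 0.1 in 3 libraries or more were tested on log2(RPKM + 0.1) with limma 3.58.1 in R 4.3.3 (intensity trend, genotype only, all 14 libraries, 8 residual and 3.83 prior degrees of freedom), adjusted by Benjamini-Hochberg. Every adjusted p comes from limma. Calls needed an adjusted p below 0.05 and a 2-fold change. A second fit shifted each library to its chloroplast median. On simulated data, 189 to 195 of 200 planted log2 changes of 2 were recovered, with 2 to 6 false calls among 23187 genes. Recovery is not given for the chloroplast genes alone. Their median SD within genotypes was 0.86, against 0.21 over all genes, so these rates do not hold for them. Named genes were the most abundant in Col of each group, those called, and those of largest and smallest spread at a mean RPKM of at least 2. Members and lists were chosen with earlier results of these data known. Alternatives were other pseudocounts, filters, scalings, samples and blocks. Figures were drawn with Python 3.11.15 and matplotlib 3.10.9.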

Additional observations from a re-analysis of the deposited data

How the results depend on the processing

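Of the counts of called chloroplast genes in the comparisons with Col or fve-4, 54 stayed within 1.5 times the value reported and 39 did not, and most of the latter moved between 0, 1 and 2 genes. In fld-6 the count was 1 with an RPKM above 1, median-of-ratios or trimmed-mean scaling, and 0 with no filter, no trend, a pseudocount of 0.01 or the replicate block. In fld-6 against fve-4 it was 1 with an RPKM above 1 or no filter and 2 with a pseudocount of 0.01 or 1. In fve-4 it was 1 with an RPKM above 1, no filter or either scaling and 0 with a pseudocount of 1. In hda5-1 it was 2 with only Col and the mutant, in hda6-6 it was 1 with replicates 2 and 3 alone, and in hda9-1 it was 1 without a fold limit. Replicate numbers were not taken to pair the samples, since no source says so. The correlations of same-numbered deviations were -0.07 to 0.17 (median 0.06 over 18 pairs, against -0.05 over 36 pairs of different number). Some genes followed the number, and these correlations cannot decide for single genes whether the number pairs the samples. With the replicate block the counts were 1 in hda6-6, 2 in hda5-1, 2 in hda9-1 and 0 in fld-6, and 4 in fve-4 relative to the chloroplast median. Leaving out 1 replicate gave 0 to 8 genes in hda6-6, 1 to 4 in hda5-1, 0 to 2 in hda9-1, 0 to 1 in fve-4, 0 to 1 in fld-6 and 0 to 1 in fld-6 against fve-4. Relative to the chloroplast median it gave 4 to 10, 5 to 11, 7 to 9, 2 to 8 and 7 to 17 genes in hda6-6, hda5-1, hda9-1, fve-4 and fld-6. With only the chloroplast genes shifted these were 1, 1, 0, 1 and 0, and with ribosomal RNA copies summed 3 in hda6-6, 5 in hda5-1, 5 in fve-4 and 7 in fld-6. These last 2 alternatives, and those by replicate number, were chosen after seeing the data. The shares of all genes called under the alternatives are not given here, so these counts cannot be set against a background. The median log2 fold change was 0.52 in fld-6 with a pseudocount of 1, 0.91 in hda5-1 with replicates 2 and 3 alone, and -0.66 in hda5-1 and -0.22 in hda6-6 with replicate 1 alone. Leaving out 1 replicate gave medians of -0.10 to 0.63 in hda6-6, 0.17 to 0.68 in hda5-1, -0.28 to 0.08 in hda9-1, -0.40 to -0.01 in fve-4 and 0.83 to 1.08 in fld-6. The summed level varied 4.07-fold without ribosomal and transfer RNA in place of 11.8-fold. No call reversed its direction, while 28 values of named genes lost the threshold and 1 gained it. Medians did change sign, in hda6-6 and hda5-1 with replicate 1 alone. They also did in hda6-6 and hda9-1 on leaving out 1 replicate. Beyond alternatives that use fewer genes or samples the cause was not tested. Low members rest on single reads, and depth limits them.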
